A study of Mus musculus with 2 samples.

Results

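The S100 genes encode small calcium-binding proteins of the EF-hand type, and 10 of them were followed here in cells taken from the intestine of WT and Lrrc19 KO mice: S100g, S100a4, S100a6, S100a8, S100a9, S100a10, S100a11, S100a13, S100a14, and S100a16. Every probe set that the array annotation assigns to a single gene of this set was taken. This gave 12 probe sets for 9 of the 10 genes, where 18193 genes in all had a probe set that names no other gene. The only probe set found for S100a11 carries 3 gene symbols, so no value is given for S100a11. The 2 groups were WT and Lrrc19 KO mice on the C57BL/6 background, 6 weeks old and kept specific pathogen free. For each genotype, RNA of 5 mice (2 males and 3 females) was pooled evenly and hybridized to 1 array, so variation among mice was not measured, no test was possible, and precision is limited by having 1 array each. By the labels, the cells came off the intestine in 30 mM EDTA, and CD4 and CD8 cells, B cells, DCs, and macrophages were then depleted. The part of the intestine is not named, and how Lrrc19 was deleted is not stated in the labels. As a check of the labels, Lrrc19 itself was at an intensity of 905 in the WT pool against 212 in the KO pool (4.26-fold lower) on one probe set and at 391 and 20.9 on the other, which can match several transcripts. Whether either one reads the deleted sequence is unknown.

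An S100 protein binds calcium through a pair of EF-hand loops, usually works as a dimer, and on binding calcium exposes a surface that grips a target protein. S100g, also called calbindin-D9k, is the exception that acts as a buffer and carries calcium through the cytosol of absorptive enterocytes under control of the vitamin D receptor. S100a8 and S100a9 together form calprotectin, a metal-binding protein that neutrophils hold in large amounts and that serves as a marker of gut inflammation in stool. The others take part in membrane, cytoskeletal, and export processes in many cell types. Except for S100g, which lies on the X chromosome, the members lie on mouse chromosome 3.

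Start-site sequences are shown for S100g, with the lowest difference, and for S100a16, the neighbor of S100a14 that was brighter in KO on both probe sets. They are also shown for the calprotectin pair S100a8 and S100a9, whose signal was too low for a difference to be read. S100a14, the only member past 2-fold, and S100a10 had no window in the reference used, so no sequence is given for them. Each sequence is the RefSeq window of GRCm38.p6 from 250 bases before to 30 bases after the annotated start, written 5′ to 3′ on the strand of the gene. Capitals mark matches on either strand to the TATA box (TATAAA), the nuclear receptor half-site (AGGTCA), the AP-1 site (TGANTCA), or the GC box (GGGCGG). The windows are chrX:162964570-162964849 (minus strand), chr3:90537004-90537283 (plus strand, the upstream of its annotated starts), chr3:90668821-90669100 (plus strand), and chr3:90695692-90695971 (minus strand).
S100g: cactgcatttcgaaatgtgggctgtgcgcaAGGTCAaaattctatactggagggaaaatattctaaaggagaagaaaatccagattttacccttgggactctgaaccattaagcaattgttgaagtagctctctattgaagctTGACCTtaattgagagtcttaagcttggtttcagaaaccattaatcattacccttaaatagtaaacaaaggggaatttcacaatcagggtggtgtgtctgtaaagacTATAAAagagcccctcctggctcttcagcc
S100a16: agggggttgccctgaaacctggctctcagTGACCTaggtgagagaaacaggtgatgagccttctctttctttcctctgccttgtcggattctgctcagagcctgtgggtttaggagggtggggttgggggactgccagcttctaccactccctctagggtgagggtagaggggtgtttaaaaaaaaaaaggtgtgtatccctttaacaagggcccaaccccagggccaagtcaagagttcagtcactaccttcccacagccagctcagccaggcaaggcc
S100a8: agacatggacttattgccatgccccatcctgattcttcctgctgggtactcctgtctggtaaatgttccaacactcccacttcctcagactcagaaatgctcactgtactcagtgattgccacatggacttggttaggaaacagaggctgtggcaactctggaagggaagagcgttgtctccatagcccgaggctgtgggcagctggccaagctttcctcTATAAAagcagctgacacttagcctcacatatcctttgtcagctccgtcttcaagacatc
S100a9: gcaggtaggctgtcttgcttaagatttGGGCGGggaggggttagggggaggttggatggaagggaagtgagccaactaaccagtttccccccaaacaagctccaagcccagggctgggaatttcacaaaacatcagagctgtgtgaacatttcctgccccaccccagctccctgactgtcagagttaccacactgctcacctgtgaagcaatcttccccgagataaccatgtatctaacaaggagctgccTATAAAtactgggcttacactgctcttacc

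The S100g window holds the nuclear receptor half-site at positions -220 and -107, on opposite strands, and TATAAA at position 1, counted from the annotated start. The S100a16 window shown has a single match, to the nuclear receptor half-site at -221. The window of its other start holds an AP-1 site at -192 and a GC box at -30. TATAAA stands at -30 in S100a8 and at 1 in S100a9, which also has a GC box at -223. In S100g and S100a9, TATAAA thus lies at the annotated start and not upstream of it. Of 8 members with a window, 4 hold TATAAA (S100g, S100a4, S100a8, and S100a9), all on the strand of the gene. Of all 32851 mouse windows of this length, 13.1% hold it on either strand and 8.02% on the strand of the gene. The nuclear receptor half-site was in 4 members (S100g, S100a4, S100a11, and S100a16), against 15.3% of all windows. The AP-1 site was in 2 members (7.46% of all windows) and the GC box in 3 (34.7%). The 4 members with TATAAA include S100g and S100a4, above the floor defined next, and S100a8 and S100a9, under it. These matches of letters show no binding.

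Values are intensities on a linear scale in arbitrary units, given as deposited, and differences are log2 of KO minus log2 of WT. The floor, the median of all probe sets that are not controls, was an intensity of 127. Of the 9 measured members, 7 reached it on at least 1 array, and the remaining 2, S100a8 and S100a9, did not. S100a14 was the single member that differed at least 2-fold. It was higher in the Lrrc19 KO pool, as were 0.559% of the 12518 genes at or above the floor. No member was at least 2-fold lower, against 0.407% of all genes. The median log2 difference of the 7 members was 0.12, beside 0.01 over all genes, and 5 were brighter and 2 dimmer in KO, where 52.1% of all genes were brighter. Of the 7, 3 differed by more than the robust SD of all genes (0.27), as did 32.7% of all genes. With 7 members and 1 array per genotype, these counts cannot show whether the family stood apart. Of the 7 members, S100g had the lowest difference and S100a14 the highest, and the other 5 lay between -0.13 and 0.39.

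**Figure D1:**
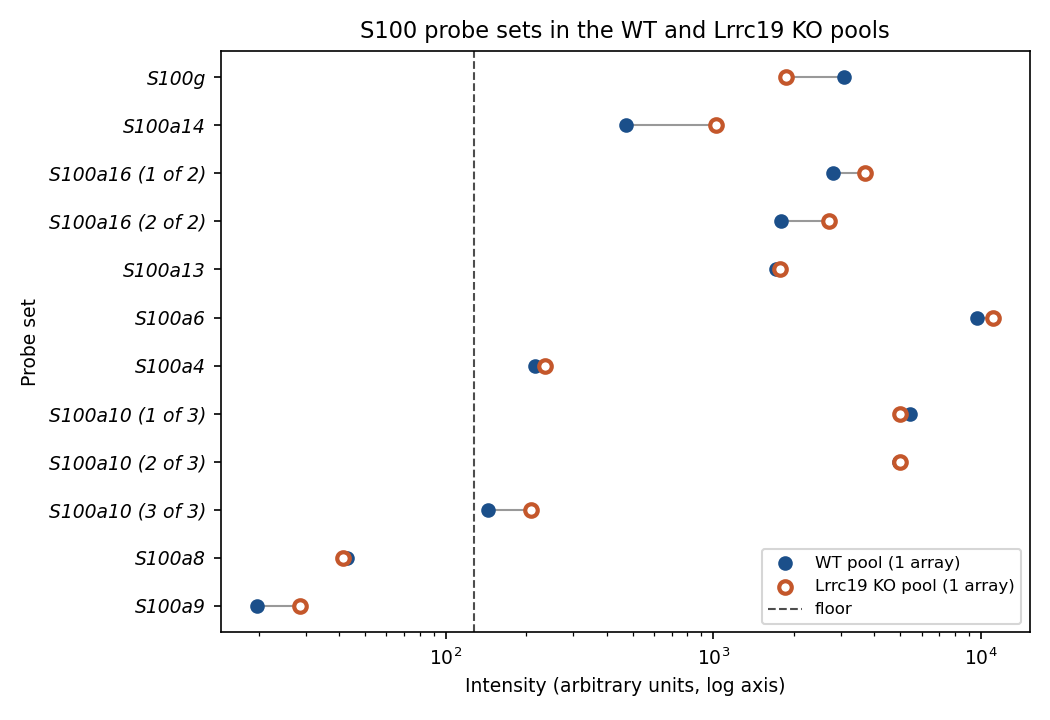
Intensity (log axis, arbitrary units) of each of the 12 S100 probe sets for WT (filled) and Lrrc19 KO (open), 1 array of pooled RNA each and no error bars. S100a14 and S100a16 lie to the right in KO, S100g lies to the left, and S100a8 and S100a9 stay under the floor (dashed, 127).

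The only probe set of S100g read 3091 in WT and 1862 in KO. This is 1.66-fold lower in KO, a log2 difference of -0.73, and does not pass 2-fold. Among all genes at or above the floor, 200 (1.6%), S100g included, had a difference at least this low. In the 4 other scalings of the arrays to each other, its log2 difference was between -1.23 and -0.61, and it passed 2-fold when the arrays were centred on the hybridization spike-ins.

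The other genes of vitamin D action and calcium uptake did not move as a block. Of 11 on the array, 9 reached the floor. None of the 9 passed 2-fold, 4 were brighter and 5 dimmer in KO, and their median log2 difference was -0.04. The claudin Cldn2, which forms a paracellular cation pore, was at 1611 in WT and 837 in KO on its brightest probe set and at 284 and 235 on its other. The sodium-calcium exchanger Slc8a1 was at 353 and 586. Trpv6, the apical calcium channel through which calcium enters the enterocyte before S100g takes it up, was at 105 in WT, under the floor, and 148 in KO. The vitamin D receptor Vdr was at 3743 and 4238, the basolateral calcium pump Atp2b1 at 3095 and 2807, and the vitamin D-degrading enzyme Cyp24a1 at 148 and 144. Vdr, Atp2b1, and Cyp24a1 were picked for their role after their values were seen.

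Markers of gut regions are given beside S100g because its level is known to differ along the intestine. All 7 ileum markers at or above the floor were dimmer in KO (median log2 difference -0.46, summed intensity of the 8 on the array 11734 in WT and 8462 in KO). Tff3 (6944 and 5089) was the largest term of both sums, and Fgf15 (108 and 98.6) was under the floor on both arrays. The transcription factor Osr2 was at 472 and 215, but its other probe set was at 126 and 142. Fabp6, the ileal bile acid-binding protein, was at 251 and 151, and the secreted peptide Guca2b at 637 and 398. The 8 proximal small intestine markers bright enough to count had a median of 0.03, with 4 brighter and 4 dimmer (summed intensity of the 15 on the array 15468 and 16960). Ada was at 263 and 180, Rbp2, the retinol-binding protein of enterocytes, at 131 and 203, and the fatty acid-binding protein Fabp2 at 9536 and 11165. Fabp2 and Slc40a1 (4079 and 4006) were the largest terms of both sums, which thus say little about the other markers. Fabp1 (80.5 and 85.3), Mttp (79.9 and 92.1), and Gata4 (115 and 109) were under the floor on both arrays. The 12 markers of intestinal epithelium, all at or above the floor, had a median of 0.05, with 8 brighter and 4 dimmer. Their largest differences were those of the homeobox gene Cdx1 (1282 and 933), of E-cadherin, Cdh1 (6677 and 8119), and of the keratin Krt20 (8894 and 10333). The part of regional makeup in the S100g difference was not tested.

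S100a14 is an S100 protein found mainly in epithelia, and S100a16 is expressed in many tissues. The only probe set of S100a14 read 472 in WT and 1022 in KO. This is 2.17-fold higher in KO, a log2 difference of 1.12, and 48 of the 12518 genes (0.383%), S100a14 included, were at least this far up. S100a16 was at 2811 and 3689 on its brightest probe set (1.31-fold higher, log2 difference 0.39) and at 1796 and 2696 on the other (log2 difference 0.59), which can match several transcripts. Both probe sets of S100a16 were thus brighter in KO without passing 2-fold, and 989 genes (7.90%) were at least as far up as its brightest one. S100a14 remained past 2-fold in 3 of the 4 other scalings, with log2 differences from 1.04 to 1.23, and was at 0.62 when centred on the spike-ins, where S100a16 was at -0.10.

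**Figure D2:**
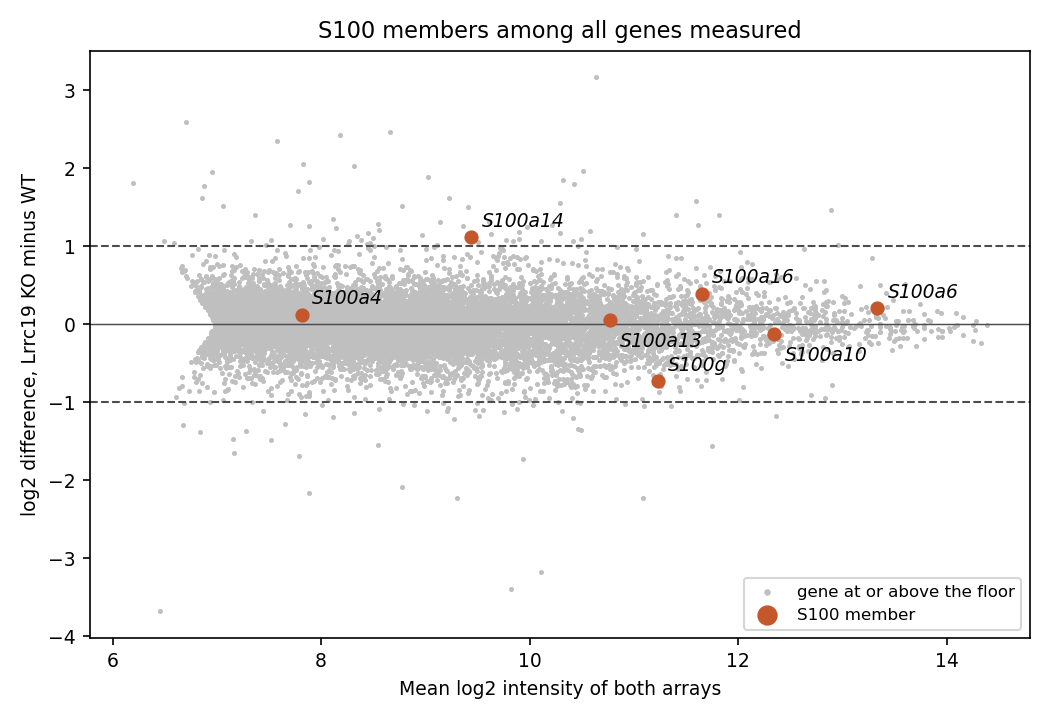
log2 difference (KO minus WT) against the mean log2 intensity of both arrays for the 12518 genes at or above the floor (gray) and the 7 S100 members (red), with dashed lines at 2-fold. S100a14 (1.12) lies just past the upper line, S100g (-0.73) lies among the lower genes of its intensity, and the other 5 lie between -0.13 and 0.39.

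In RefSeq, S100a14 and S100a16 are neighbors on chromosome 3, and the order there is S100a1, S100a13, S100a14, S100a16, and S100a3. The next gene on one side, S100a13, was at 1714 and 1777 (log2 difference 0.05), and S100a1, a muscle S100 protein and no member of the set, was at 1589 and 1385 on its brightest probe set (-0.20), which can match several transcripts, and at 1071 and 869 on the other (-0.30). On the other side, S100a3 was under the floor with either genotype (41.1 and 52.6). S100a4 and S100a6 farther along differed by 0.12 and 0.20. S100a14 was the only one of the S100 genes on this chromosome at or above the floor to pass 2-fold.

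**Figure D3:**
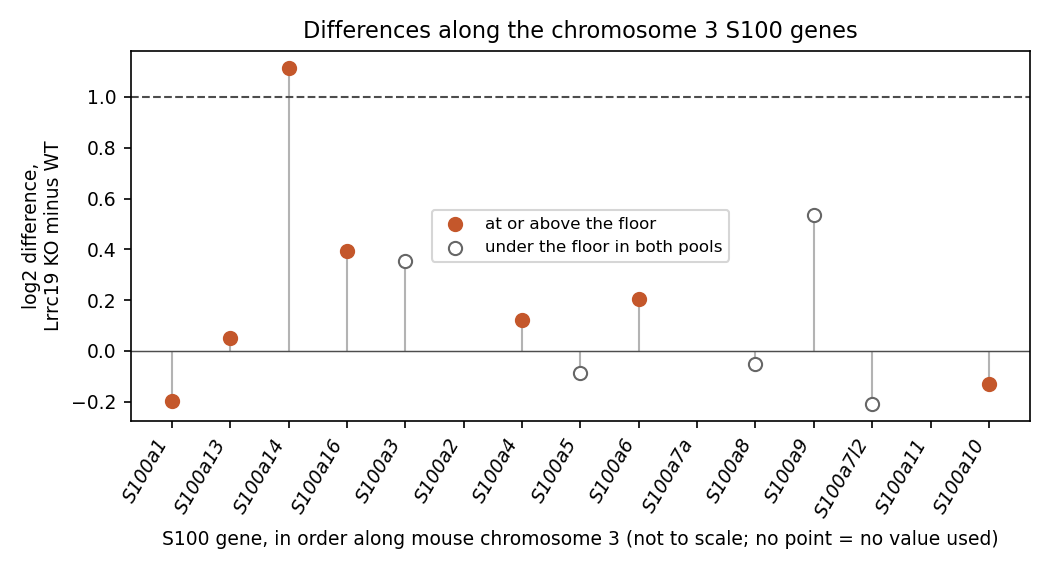
log2 difference (KO minus WT) of the brightest probe set of each S100 gene in its order along mouse chromosome 3, not to scale, for genes at or above the floor (filled) and under it in both pools (open). S100a14 stands at 1.12 and S100a16 at 0.39, while S100a13 (0.05) and S100a1 (-0.20) on the near side lie close to 0 or below it.

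Lists for other tissue are given beside this pair. Of 13 colon markers at or above the floor, 8 were brighter and 5 dimmer in KO, and 4 were at least 2-fold higher and none lower (median log2 difference 0.41, summed intensity of the 15 on the array 84918 in WT and 92459 in KO). With the spike-ins as reference, the colon median was -0.08. Aqp8, a water channel, was at 2019 and 4873, the homeobox gene Hoxb13 of the hindgut at 259 and 738, Hoxd13 at 42.4, under the floor, and 255 (70.5 and 57.0 on its other probe set), and the acute-phase protein Saa1 at 5585 and 11265. The 5 that were dimmer, named after their values were seen, all differed by less than 2-fold: Car1 (22420 and 18909), Muc2 (20977 and 18071), Cyp2c55 (15109 and 13203), Mettl7b (4152 and 3133), and B3galt5 (1896 and 1862). Stratified squamous epithelium, such as that of the anal canal, also expresses both genes. Of 20 squamous markers on the array, 10 reached the floor and none passed 2-fold (median 0.10, summed intensity 2651 and 2877). The basal keratins Krt5 (72.9 and 77.6) and Krt14 (65.3 and 78.6) were under the floor on both arrays. The largest squamous differences were those of Ivl (100.4, under the floor, and 154), Krt16 (132 and 189), and Trp63 (157 and 128). Whether the share of colon cells had a part in the S100a14 difference was not tested.

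S100a6, S100a4, S100a10, and S100a13 differed little between the pools. S100a6, or calcyclin, was at 9631 in WT and 11097 in KO (1.15-fold higher, log2 difference 0.20). S100a4, which binds nonmuscle myosin and is abundant in fibroblasts and leukocytes, was at 216 and 235 (1.09-fold higher). S100a13, which takes part in the unconventional release of Fgf1 and Il1a, had 1.04-fold more signal in KO. All 3 differences were smaller than the robust SD of all genes.

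S100a10, the partner of annexin A2 that holds its target without calcium, was read by 3 probe sets, which did not run together. The brightest was at 5439 and 4968 (log2 difference -0.13). The next, which can match several transcripts, was at 4956 and 4975 (0.0053), and the dimmest, close to the floor, was at 143 and 208 (0.54). The mean of the 3 gave a log2 difference of 0.14, so the sign for S100a10 depends on the probe set.

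The genes listed as partners of these proteins differed by less than 2-fold. Of 10 S100a10 partners on the array, 7 reached the floor, with a median log2 difference of 0.18. The scaffold Ahnak was at 2621 and 4039 on the one of its probe sets that reached the floor, the plasminogen activator Plat at 192 and 271, and Dlc1 at 313 and 373. Anxa2 itself, named here for its role after its values were seen, was at 8208 and 7699 (-0.09). All 8 measured partners of S100a4, S100a6, and S100a11 reached the floor (median 0.08), and the largest differences were those of the nonmuscle myosins Myh14 (3636 and 5282) and Myh9 (2973 and 3630, with a further probe set at 1728 and 1687) and of Sugt1 (1804 and 1519, and 197 and 215 on its other probe set). Of the 4 genes listed as S100a13 export partners, 3 reached the floor: Syt1 at 180 and 255, Fgf1 at 299 and 369, and Prkab1 at 737 and 669. Nothing in these data shows that Prkab1 takes part in this export. The cargo gene Il1a was under the floor with either genotype.

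S100a8 and S100a9 had no signal over the floor. S100a8 read 42.6 (WT) against 41.1 (KO), and S100a9 read 19.7 against 28.6, so no fold is given for either. The probe set of S100a8 can match several transcripts. Of 20 neutrophil markers on the array, 9 reached the floor, and none passed 2-fold (median 0.07, summed intensity 6421 in WT and 5166 in KO). Of the granule genes among them, Mpo (92.0 and 104), Elane (109 and 95.7), Ltf (63.5 and 82.5), Ngp (58.3 and 55.7), and Mmp8 (53.5 and 40.8) were under the floor with either genotype, while Camp (136 and 131) and Mmp9 (233 and 224) were above it, as was the receptor Csf3r (813 and 871). The largest differences were those of Cd177 (3717 and 2274), Lcn2 (113, under the floor, and 183), which epithelium also makes, and the protease Asprv1 (197 and 247). Cd177 was the largest term of both sums and fell by more than the sum did, so the lower sum in KO does not describe the other markers. No KO difference in the calprotectin genes could be read from these arrays.

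The receptors and effectors that calprotectin acts on were measurable. On the array were 11 of them, and the 10 that reached the floor all differed by less than 2-fold, with a median of -0.15. Ptgs2, the inducible cyclooxygenase, was at 150 in WT and 275 in KO on its brightest probe set. The NADPH oxidase subunits Cyba and Cybb, the latter of phagocytes, were at 1694 and 1016 and at 317 and 195. Of 14 markers of monocytes and macrophages on the array, 12 reached the floor, 11 of them dimmer in KO (median -0.28, summed intensity 10642 and 8499), led by Ms4a7 (622 and 343), Adgre1 (606 and 363), and Aif1 (187 and 117). S100a4, which such cells also express, had a log2 difference of 0.12 as deposited, 0.04 with equal medians, and -0.38 with the spike-ins.

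Markers of the wall and of fat were compared because S100a4, S100a6, and S100a10 are also expressed there. All 9 smooth muscle markers were brighter in KO without passing 2-fold (median 0.40, or -0.10 with the spike-ins as reference, summed intensity 58206 and 76565), with Des at 4206 and 6581, Myh11 at 5685 and 8349, and Cnn1 at 5995 and 8799. The 12 fibroblast markers had a median of 0.07 (summed intensity 29870 and 31720), with Mfap5 at 252 and 134 (118 and 128 on its other probe set), Fn1 at 1822 and 2776, and Col1a2 at 3804 and 4412. Of 6 adipocyte markers at or above the floor, 3 were at least 2-fold lower and none higher (summed intensity of the 8 on the array 5589 and 1871): Adipoq at 313 and 24.4, under the floor, Car3 at 2941 and 278, and Fabp4 at 1372 and 648. Of the other 3, Retn was dimmer in KO (199.8 and 123), and Cidec (276 and 304) and Plin4 (337 and 372) were brighter, all by less than 2-fold. Their part in the S100 values was not tested. Because the RNA is that of mixed cells, fewer cells of a type and less RNA per cell cannot be told apart.

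**Figure D4:**
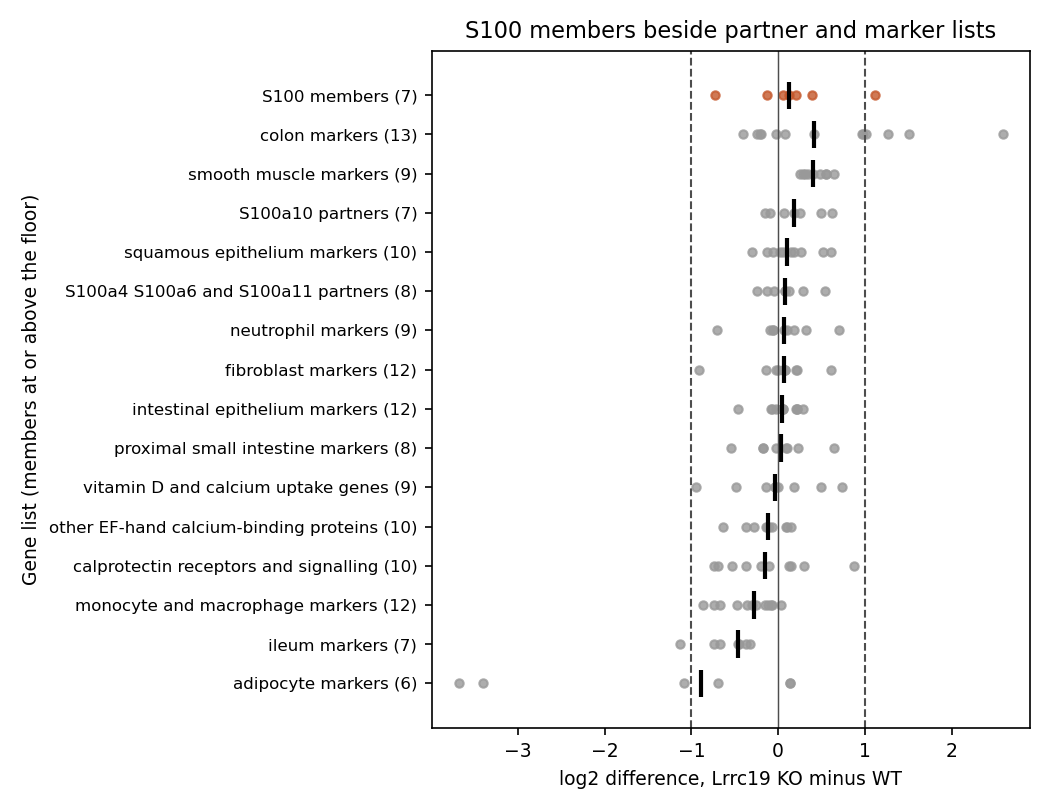
log2 difference (KO minus WT) of each gene at or above the floor (points) in the S100 set and in 15 partner and marker lists, with the median of each list as a black bar and the number of genes in parentheses. The S100 median (0.12) lies near 0 with S100g and S100a14 at its ends, colon (0.41) and smooth muscle (0.40) markers lie to the right, and ileum (-0.46) and adipocyte (-0.89) markers lie to the left.

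Other S100 genes and a list of 15 EF-hand genes outside the S100 family were measured as well. Of that list, 11 were on the array, and none of the 10 at or above the floor passed 2-fold (median -0.12), with Nucb2 at 278 and 179, Rcn1 at 635 and 491, and the calpain small subunit Capns1 at 2597 and 2139. Of 5 S100 genes outside the set, only S100a1 reached the floor. S100a5 (76.6 and 72.2), S100a7l2 (24.5 and 21.2), and S100b (73.6 and 91.7), an S100 gene of glia, were under it in both pools. The fused-type S100 genes of the epidermis, Flg (35.4 and 35.8), Hrnr (10.6 and 12.5), Rptn (27.8 and 25.1), Tchh (3.51 and 8.16), and Tchhl1 (41.5 and 58.2), were under the floor as well.

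The scaling that the authors applied between the arrays could not be worked out. All 18 spike-in probe sets read higher in KO than in WT (median log2 difference 0.50). Centring on them moved the median of all genes to -0.48, centring on 8 control genes moved it to 0.13, and equal medians gave -0.07. The control genes with the largest differences were Gusb (428 and 269), Hprt (2625 and 2233), and Rplp0 (13400.1 and 11885). These settings shift all genes by the same amount, so they cannot change the order of the members or their distance from the median of all genes, which was 1.10 for S100a14 and -0.75 for S100g. Quantile normalization can change both, and gave 1.14 and -0.70, with S100a14 still the highest member and S100g the lowest. S100a4, S100a6, S100a13, and S100a16 had negative differences with the spike-ins, and S100a13 also with equal medians (-0.03). The list medians turned sign too. With the spike-ins the median of each list was negative, among them the S100a10 partners (-0.32), the S100a13 list, Prkab1 included (-0.19), and the squamous markers (-0.39). With equal medians, those of the S100a4, S100a6, and S100a11 partners (-0.0045) and of neutrophil (-0.0075), fibroblast (-0.0099), intestinal epithelium (-0.03), and proximal small intestine (-0.05) markers were negative. The median of the vitamin D and calcium uptake genes was positive after quantile normalization (0.02) and with the control genes (0.08).

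**Figure D5:**
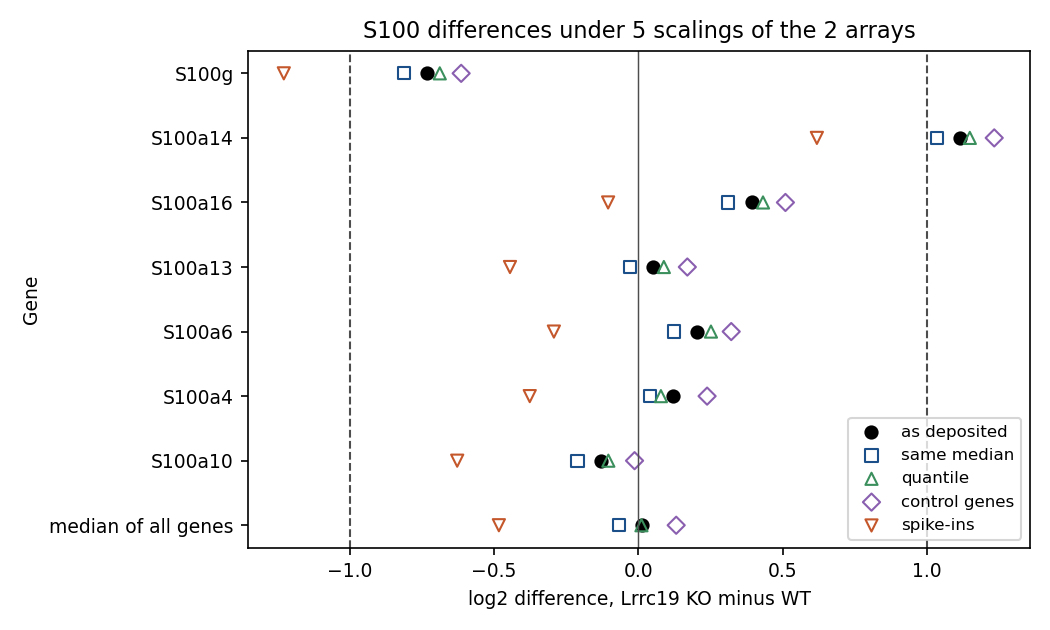
log2 difference (KO minus WT) of the 7 S100 members at or above the floor and the median of all genes, with the arrays as deposited (filled) and under 4 other scalings (open), and dashed lines at 2-fold. S100a14 is the highest and S100g the lowest as deposited and after quantile normalization, the other scalings shift all genes equally, and the spike-in scaling shifts every member to the left (S100a14 to 0.62 and S100g to -1.23).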

How the data were processed

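RNA pooled from 5 mice per genotype was measured on 1 Affymetrix mouse genome array each. The values deposited by the authors are probe set intensities on a linear scale, from 1 to 25842, for 45101 probe sets. RMA is named without a version in the processing notes of the submitters, but medians of 124 (WT) and 131 (KO) differed, so how the arrays were scaled is not known.

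With Python 3.11.15, pandas 2.3.3, and numpy 2.4.6, values under 1 were set to 1 and converted to log2. Of 45037 probe sets that are not controls, 34945 carried 1 gene symbol, 932 several, and 9160 none in the platform annotation. Symbols were updated through gene identifiers with RefSeq GRCm38.p6 (34741 matched). For each gene the brightest probe set, by mean log2 value, was used. The floor was the 50th percentile, reached by 1 array or more. Genes with log2 differences of 1 or more, up or down, were called at least 2-fold different. No test was run. The code was checked on simulated data. Members and lists (235 entries, 206 on the array) were chosen with earlier results of these data known. Named genes are all members, other S100 genes, and of each list the 3 with the largest difference plus those past 2-fold. Granule genes, Csf3r, Krt5, Krt14, Il1a, Vdr, Atp2b1, Cyp24a1, Anxa2, Retn, Cidec, Plin4, and the dimmer colon markers were named in addition, after their values were seen. Slc40a1, Fabp1, Mttp, Gata4, Tff3, Fgf15, Acta2, Col3a1, and Epcam were added in the same way. The 9 alternatives tried were 4 scalings, 2 choices of probe set, and 3 treatments of the floor.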

Additional observations from a re-analysis of the deposited data

How the results depend on the processing

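With the arrays centred on the hybridization spike-ins, no S100 member was at least 2-fold higher (0 in place of 1), 1 was at least 2-fold lower (S100g, -1.23), and the median log2 difference of the members was -0.38. In that setting all 7 members moved by more than the robust SD of all genes. This SD is the spread of the differences across genes between the arrays and does not measure the spread between mice, which is unknown. Under the other 8 alternatives the members at or above the floor moved by less than this SD, S100a14 was the only member past 2-fold, with a log2 difference from 1.04 to 1.23, and S100g was between -0.81 and -0.61. S100a10 changed sign with the mean of all probe sets (0.14), S100a13 did so with equal medians (-0.03), and S100a4 was under the floor at the 75th percentile (an intensity of 354), which left 6 members. No paired analysis was possible because each genotype had 1 array, and for the same reason no replicate could be left out. Dim probe sets such as those of S100a8 and S100a9 have only an upper bound, the floor.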
